A study of Mus musculus with 6 samples.

Results

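Collagen chain genes were followed in a mouse mammary carcinoma line sorted by its uptake of a modified lipoprotein. They were taken by symbol as every row of the authors' table of protein-coding genes named Col, a number, the letter a and a number, which gave 41 of its 15973 genes. The line, 4T1-T, is a clone of the 4T1 carcinoma that the study classes as proficient in vasculogenic mimicry, the formation of blood-carrying channels by tumor cells. All cells of both groups received acetylated low-density lipoprotein (acLDL) labelled with Alexa-488 at 10 ug/mL for 4 h after a night in starvation medium, and then complete medium for 1 h. The brightest 25% of cells were sorted as acLDL-high and the dimmest 25% as acLDL-low, with 3 RNA-Seq libraries of each from repeats of the experiment on 3 occasions. Both groups are therefore sorted parts of cultures of 1 clonal line, with no untreated or unsorted library. The comparison asks which collagen genes differ in RNA between cells that took up much or little acLDL.

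Collagens are extracellular proteins in which chains wind around each other as a triple helix, and the helix needs a glycine at the start of every triplet of residues. Some chains form the striated fibrils of connective tissue, others build the sheet of the basement membrane under epithelium and around vessels, and others coat fibrils, make beaded filaments or anchor epithelium to the tissue beneath. Some trimers hold copies of a single chain and others mix chains of different genes, so that a mixed trimer needs RNA for all its partners, and carcinoma cells are known mainly for basement membrane chains while fibroblasts supply most fibrillar collagen.

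The repeat that defines the family is read directly from the coding sequence. The first 90 bases of the longest run of glycine triplets are shown for the 3 chains whose RNA was called different between the populations, from the transcript with the longest coding sequence in GENCODE M21, with each glycine codon (GGN) at the start of a triplet in capitals.

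Col12a1: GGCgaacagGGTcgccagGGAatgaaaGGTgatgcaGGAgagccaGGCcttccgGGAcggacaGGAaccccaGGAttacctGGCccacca
Col4a5: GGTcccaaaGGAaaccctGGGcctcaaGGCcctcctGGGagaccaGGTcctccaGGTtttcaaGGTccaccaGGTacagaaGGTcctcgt
Col6a2: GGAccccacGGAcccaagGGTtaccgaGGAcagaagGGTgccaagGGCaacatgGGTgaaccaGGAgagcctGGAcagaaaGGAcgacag

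These runs began at codon 2805 of 3065 in Col12a1, at codon 1249 of 1691 in Col4a5 and at codon 271 of 1034 in Col6a2. Over the 41 genes the longest unbroken run had 23 to 339 triplets, with a median of 57, and runs of at least 6 triplets took 7.63% to 85.6% of the codons, with a median of 59.4%. Col12a1 had the lowest share, 7.63%, and a longest run of 32 triplets. Col4a5 was built in another way, with 78.8% of its codons in 23 runs of which the longest had 42 triplets. Col6a2 and its partner Col6a1 were alike, each with a longest run of 87 triplets and with 31.9% of the codons in its 3 runs together. The fibrillar chain Col1a1 had a run of 338 triplets, whereas Col24a1 and Col27a1, also classed as fibrillar, had runs of 216 and 217.

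Promoter sequence from RefSeq (GRCm38.p6), 250 bases before to 50 after the start site, was found for 32 of the 41 chains. The 250 bases before the start are shown for Col4a5, for Col6a2 and for Col6a1, the partner of Col6a2, because their RNA values are compared further on. Col12a1 has no entry. Capitals mark every match on either strand to any of the motifs that follow. The GC box was searched as GGGCGG and the CCAAT box by the letters of its name. The TATA box was searched as TATAAA. The AP-1 site was searched as TGANTCA, and the forkhead site as TGTTTAC. The last line is the stretch that Col4a1 and Col4a2 share at their 5′ ends, read on the strand of Col4a2.

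Col4a5, chrX:141475169-141475418, plus strand: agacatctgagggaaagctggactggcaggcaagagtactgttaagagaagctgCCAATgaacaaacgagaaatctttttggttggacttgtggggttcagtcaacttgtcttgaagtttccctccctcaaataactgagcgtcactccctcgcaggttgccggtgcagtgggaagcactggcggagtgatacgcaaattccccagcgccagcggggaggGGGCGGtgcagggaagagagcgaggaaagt
Col6a2, chr10:76623631-76623880, minus strand: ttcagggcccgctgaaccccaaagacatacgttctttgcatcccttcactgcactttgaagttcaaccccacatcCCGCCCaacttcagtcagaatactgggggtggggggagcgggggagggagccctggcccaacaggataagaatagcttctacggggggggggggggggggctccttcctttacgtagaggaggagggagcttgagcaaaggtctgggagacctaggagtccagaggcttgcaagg
Col6a1, chr10:76726045-76726294, minus strand: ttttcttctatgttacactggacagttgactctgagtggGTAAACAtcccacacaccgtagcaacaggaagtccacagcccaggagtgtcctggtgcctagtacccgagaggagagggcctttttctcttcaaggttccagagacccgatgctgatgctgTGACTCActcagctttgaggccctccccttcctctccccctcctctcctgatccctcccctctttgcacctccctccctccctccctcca
Col4a1 and Col4a2, chr8:11312805-11312826, plus strand: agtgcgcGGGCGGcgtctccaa

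The Col4a5 window held a GC box starting at position -30 and a CCAAT box at -196 from the start site. Upstream of Col6a2 there was a GC box at -175. Col6a1 shared none of these and had the AP-1 match at -90 and the forkhead match at -211, the only chain of the 32 with either. GC boxes occurred in 21 of the 32 windows (65.6%) and in 35.7% of all 32851 RefSeq windows, and the median GC content was 59.5% for the chains and 52.7% for all windows. CCAAT boxes were found in 11 windows (34.4%, against 37.4% of all), TATA boxes in 4 (12.5%, against 13.6%), AP-1 sites in 1 (3.13%, against 7.81%) and forkhead sites in 1 (3.13%, against 3.65%). These are matches of letters and not measured binding sites.

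The libraries were deep enough to see low levels. Totals were 70263372 to 94216786 counts, so 3 counts, the limit that a count of 0 allows, correspond to 0.0323 to 0.0429 CPM (the count of a gene relative to its library's size after TMM scaling), for counting error only. All 8 epithelial markers examined were above 1 CPM in the mean, and their sum was 3070 to 4529 CPM in acLDL-low and 3464 to 4773 CPM in acLDL-high libraries. Of 10 endothelial markers 4 were not rows of the table, and the others summed to 1.03 to 1.28 CPM and 0.515 to 0.915 CPM. Of 10 fibroblast markers, a cell type rich in collagen, 3 were not rows of the table (Lum, Thy1, Tcf21), Pdgfrb and Mfap5 had at most 2 counts and Dcn at most 18 counts in any library. The sum of the fibroblast markers was 29.6 to 41.8 CPM in acLDL-low and 32.1 to 44.2 CPM in acLDL-high libraries, most of it Pdgfra.

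Of the 41 chains, 27 passed the low-count filter and could be tested. The other 14 had at most 10 counts in every library. These were Col1a2 with at most 10 counts, Col5a2 and Col9a2 with at most 6, Col13a1 and Col28a1 with at most 4, and Col10a1, Col19a1, Col22a1, Col23a1, Col25a1, Col26a1, Col4a3, Col6a6 and Col9a1 with at most 2. At this depth a difference between the populations was not detectable for them, and no fold is given. Col1a2 and Col5a2 encode the usual partners of the chains of Col1a1 and Col5a1. A further 3 chain genes by name, Col3a1, Col4a4 and Col11a1, were no rows of the authors' table and had 0 counts in all 6 libraries.

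Levels of different chains were compared as CPM per kb of exon, averaged over the 6 libraries. The order was led by Col18a1 with 99.9 CPM per kb, a basement membrane proteoglycan that releases the fragment endostatin, and by the type IV chains Col4a1 and Col4a2, the common basement membrane network, with 93.5 and 80.5 CPM per kb. Col16a1, a fibril-associated collagen, had 51.2 CPM per kb and Col7a1, the anchoring fibril collagen of skin and other epithelia, 49.0 CPM per kb. Below these came Col6a1 at 27.2 CPM per kb, Col8a1, a short-chain network collagen, at 23.9 CPM per kb, the fibril chain Col5a1 at 21.3 CPM per kb and Col4a5 at 8.59 CPM per kb. Col11a2 (1.34 CPM per kb) and Col20a1 (1.05 CPM per kb) were the last of the 11 chains at or above 1 CPM per kb. The other 16 tested chains lay between 0.856 CPM per kb (Col17a1) and 0.00695 CPM per kb (Col6a4).

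**Figure D1:**
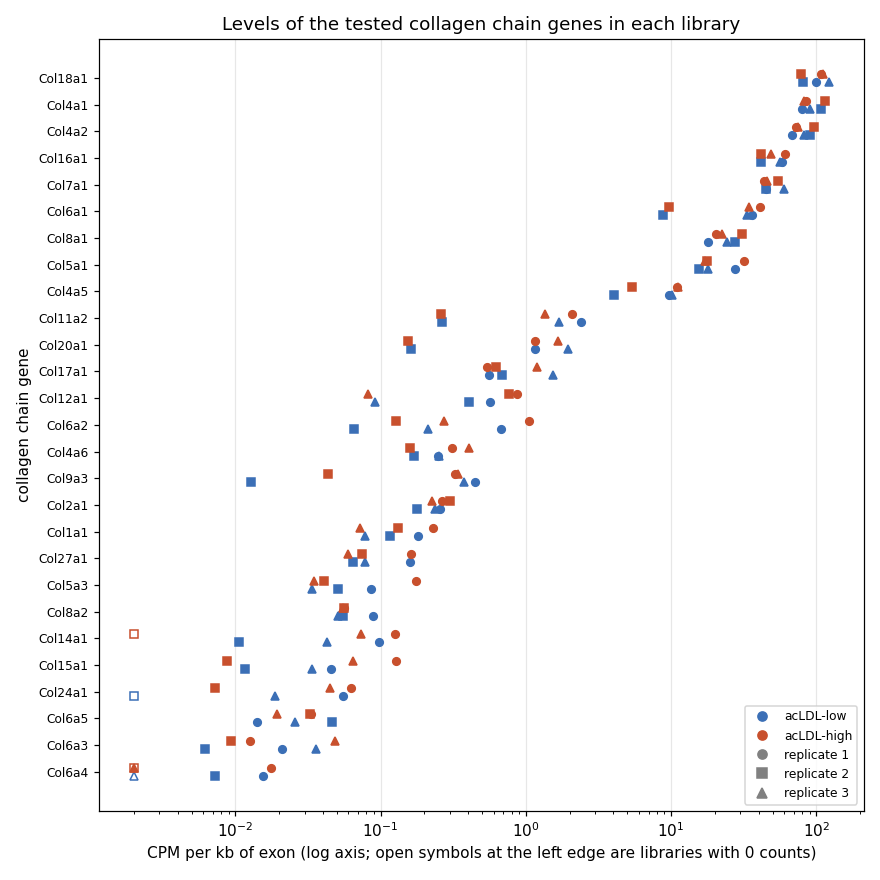
Level of each of the 27 tested collagen chains in each library, as CPM per kb of exon on a log axis. Blue marks acLDL-low and orange acLDL-high libraries, the symbol gives the replicate number, and open symbols at the left edge are libraries with 0 counts. Col18a1, Col4a1 and Col4a2 lead in the mean with 80.5 to 99.9 CPM per kb, and replicate 2 of both populations lies left of the others for Col11a2, Col20a1 and Col6a1.

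The neighbours at the top of this order overlapped. Col18a1 had 99.7, 81.0 and 122 CPM per kb in the acLDL-low libraries and 108, 78.4 and 110 CPM per kb in the acLDL-high libraries, in the order of replicates 1, 2 and 3, which is used throughout. Col4a1 had 80.0, 108 and 90.6 CPM per kb in acLDL-low and 85.5, 115 and 82.0 CPM per kb in acLDL-high libraries. Thus Col18a1 was above Col4a1 in replicates 1 and 3 and below it in replicate 2 of both populations. Col16a1 and Col7a1 also crossed. Col16a1 was higher in both replicate 1 libraries (57.8 and 60.8 CPM per kb, against 45.2 and 43.6 CPM per kb for Col7a1) and Col7a1 in both replicate 2 libraries (45.2 and 54.5 CPM per kb, against 41.7 and 41.8 CPM per kb). In replicate 3 Col7a1 was higher in acLDL-low (59.9 against 56.1 CPM per kb) and Col16a1 in acLDL-high cells (48.8 against 45.7 CPM per kb). By class, shares were taken of summed CPM without division by exon length, so they do not rank the classes per kb. The type IV chains of the basement membrane network held 38.3% of all collagen CPM. The multiplexins Col18a1 and Col15a1, counted apart though also of basement membranes, held 20.8%. The anchoring fibril chain held 15.0%, fibril-associated chains 10.7% and fibrillar chains 5.79%. Short-chain network collagens held 5.56%, beaded filament chains 3.66% and transmembrane collagens 0.154%.

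The total of the collagens did not separate the populations. Summed over the 41 chains, the acLDL-low libraries held 3251, 3151 and 3669 CPM and the acLDL-high libraries 3475, 3388 and 3269 CPM. The sum was higher in acLDL-high cells in replicates 1 and 2 and lower in replicate 3, with log2 differences of 0.10, 0.10 and -0.17. The mean log2 difference was 0.01 (exact permutation test over the 3 pairs, two-sided, p = 1). With 3 pairs this test cannot give a p below 0.25. In bulk libraries a smaller number of cells that make a collagen cannot be told apart from less RNA per cell.

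In the test of single genes, 3 of the 27 chains were higher in acLDL-high cells, Col12a1, Col4a5 and Col6a2, and 0 were lower. This is 11.1% of the chains tested, beside 4.75% of all 12572 genes tested (3.43% called higher and 1.32% called lower). The test was the quasi-likelihood test of edgeR, blocked on the replicate number, with Benjamini-Hochberg adjustment over all genes tested at a threshold of 0.05. At an unadjusted p under 0.05, edgeR had 5 chains higher and 1 lower, 22.2% of the chains beside 19.4% of all genes tested. DESeq2 called 3 higher and 0 lower, and 0 were lower at its unadjusted p. It gave no adjusted p for Col14a1, Col15a1, Col1a1, Col24a1, Col5a3, Col6a3, Col6a4, Col6a5, Col8a2 and Col9a3. Its adjusted calls therefore leave these chains out. Without the block 0 of 26 chains were called, at the adjusted and the unadjusted threshold alike. No chain had populations that did not overlap in CPM, which held for 2.86% of all genes tested.

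Col12a1 encodes a fibril-associated collagen that binds to the surface of collagen fibrils in tissue under tension. It lies on chromosome 9 at 79598991 to 79718831 on the minus strand (GRCm38). The acLDL-low libraries had 654, 499 and 97 counts, or 8.64, 6.18 and 1.39 CPM, and the acLDL-high libraries 1051, 845 and 116 counts, or 13.2, 11.8 and 1.25 CPM. Replicate 3 was lowest in both populations, so the ranges overlapped, and acLDL-high exceeded acLDL-low in replicates 1 and 2 only. The fitted log2 fold change, acLDL-high minus acLDL-low, was 0.61 (SE 0.14, edgeR adjusted p = 0.0257), with differences of 0.61, 0.92 and -0.15 within the pairs. Group means were 5.40 ± 3.69 CPM and 8.74 ± 6.53 CPM (SD, n = 3). It was called with each pair of libraries left out in turn, but its log2 fold change was 0.39 without replicate 2 (adjusted p = 0.0475).

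Col4a5 encodes a type IV chain of the more specialised basement membranes, as in the kidney glomerulus, where its mutation causes Alport syndrome. It lies on chromosome X at 141475385 to 141689234 on the plus strand. The counts were 4945, 2212 and 4738 in acLDL-low and 5908, 2621 and 6980 in acLDL-high libraries, which is 65.4, 27.4 and 67.7 CPM and 74.3, 36.4 and 75.1 CPM. Both replicate 2 libraries were low, and acLDL-high was higher in every pair. The log2 fold change was 0.24 (SE 0.05, edgeR adjusted p = 0.0230), with pair differences of 0.18, 0.41 and 0.15. Group means were 53.5 ± 22.6 CPM and 61.9 ± 22.1 CPM (SD, n = 3), a difference smaller than the spread within a group. The call was lost without replicate 2 (log2 fold change 0.17, adjusted p = 0.0654) and without replicate 3 (0.29, adjusted p = 0.0970).

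Col6a2 encodes a chain of type VI collagen, which forms beaded filaments near cell surfaces and whose trimer also needs the chains of Col6a1 and, usually, Col6a3. It lies on chromosome 10 at 76595762 to 76623630 on the minus strand. Counts were 428, 44 and 123 in acLDL-low and 692, 76 and 212 in acLDL-high libraries, or 5.66, 0.545 and 1.76 CPM and 8.70, 1.06 and 2.28 CPM. Replicate 1 was high in both populations, and each acLDL-high library exceeded its partner. The log2 fold change was 0.60 (SE 0.14, edgeR adjusted p = 0.0260), with pair differences of 0.62, 0.92 and 0.37. The means were 2.65 ± 2.67 CPM and 4.01 ± 4.10 CPM (SD, n = 3). It was no longer called without replicate 1 (0.60, adjusted p = 0.172) or without replicate 3 (0.71, adjusted p = 0.0957).

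**Figure D2:**
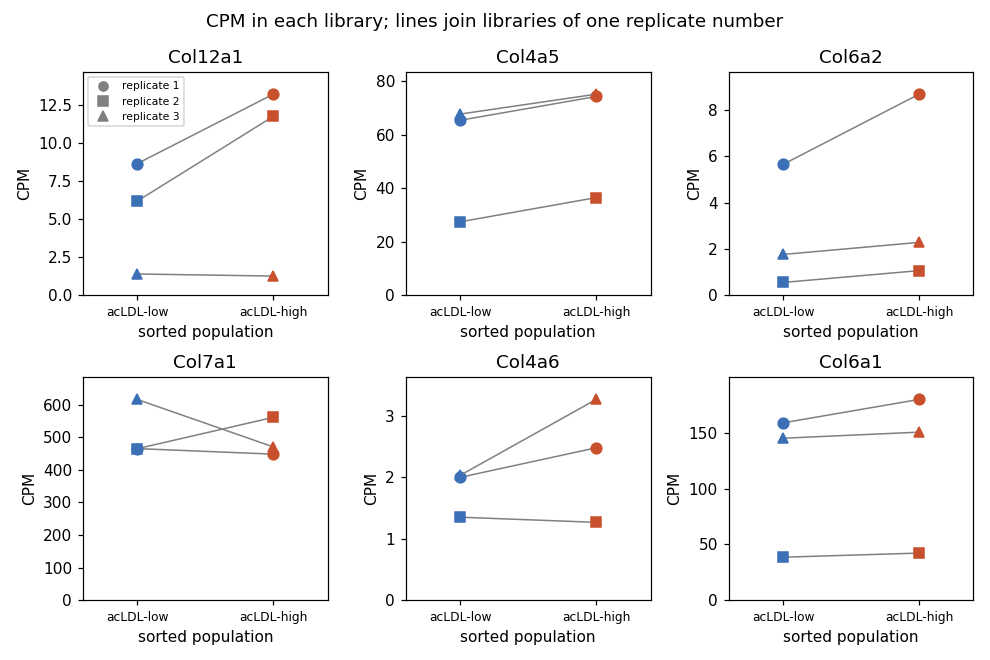
CPM of 6 collagen chains in each library, with lines that join the acLDL-low and acLDL-high libraries of a replicate number. Col4a5 and Col6a2 slope upward in all 3 pairs and Col12a1 in replicates 1 and 2, while Col7a1 has slopes of opposite sign (-0.05, 0.27 and -0.39 on the log2 scale).

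Some cell type markers also differed between the populations. Of the epithelial markers, the tight junction claudins Cldn3, Cldn4 and Cldn7 were called higher in acLDL-high cells by edgeR (log2 fold changes 0.28, 0.53 and 0.30). The epithelial markers Epcam, Cdh1, Krt8, Krt18 and Krt19 were tested and not called. Of the fibroblast markers Postn was called higher (log2 fold change 0.88, edgeR adjusted p = 0.0394). It had 0.515 to 1.24 CPM in acLDL-low and 0.842 to 3.20 CPM in acLDL-high libraries. The other fibroblast markers tested were not called. Pdgfra had a log2 fold change of 0.08 (SE 0.05) and Fap of -0.46 (SE 0.38), lower in all 3 pairs, and Fbln1 had 9, 0 and 6 counts in acLDL-low and 2, 0 and 0 counts in acLDL-high libraries. Of the macrophage markers Cd14 was called higher (0.32, SE 0.07), while Cd68, at a similar CPM, had -0.28 (SE 0.11, edgeR adjusted p = 0.201) and Fcgr1 at most 4 counts, and the list summed to 19.2 to 21.6 CPM and 20.1 to 24.4 CPM. The mural cell markers, of which 0 of 4 tested were called, summed to 10.5 to 30.5 CPM and 12.2 to 29.7 CPM. Their part in the collagen results was not tested.

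Among the basement membrane chains, Col4a1 and Col4a2 stayed together. Col4a1 had 597, 807 and 676 CPM in acLDL-low and 638, 857 and 612 CPM in acLDL-high libraries, and Col4a2 had 448, 596 and 543 CPM and 476, 642 and 494 CPM. Both were highest in replicate 2, and their populations overlapped. Their log2 fold changes were 0.01 (SE 0.05) for Col4a1 and 0.02 (SE 0.05) for Col4a2, with edgeR adjusted p of 0.927 and 0.890. The genes lie head to head on chromosome 8, with 22 bases of gene body in common, the stretch shown above, and with start sites 21 bases apart. Their ratio per kb, Col4a1 to Col4a2, was 1.18, 1.201 and 1.10 in acLDL-low and 1.19, 1.18 and 1.10 in acLDL-high libraries, the narrowest range of the 6 partner pairs examined.

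Col4a5 and Col4a6 are arranged in the same way on chromosome X, with 1308 bases between them. Col4a6, the other chain of that pair, had 2.00, 1.35 and 2.03 CPM in acLDL-low and 2.48, 1.27 and 3.26 CPM in acLDL-high libraries. Its acLDL-high value was the larger in replicates 1 and 3, and its log2 fold change was 0.34 (SE 0.17, edgeR adjusted p = 0.289). Per kb, Col4a5 exceeded Col4a6 by 24.1 to 39.6 times. The pair differences of this ratio were -0.13, 0.51 and -0.53 on the log2 scale, of both signs (exact permutation test, p = 0.75).

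For type VI collagen the partners were unequal in level. Col6a1 had 159, 38.6 and 145 CPM in acLDL-low and 180, 42.3 and 151 CPM in acLDL-high libraries, so that replicate 2 was low in both. Its log2 fold change was 0.12 (SE 0.04, edgeR adjusted p = 0.144), with acLDL-high higher in all 3 pairs. Col6a3 had 0.251, 0.0743 and 0.429 CPM in acLDL-low and 0.151, 0.111 and 0.581 CPM in acLDL-high libraries, near the counting limit. Its log2 fold change was 0.11 (SE 0.41). Per kb, the level of Col6a1 was 39.3 to 157 times that of Col6a2 and 708 to 3259 times that of Col6a3. The Col6a1 to Col6a2 ratio was lower in acLDL-high cells in every pair, by -0.44, -0.82 and -0.32 on the log2 scale, a mean of -0.53 (exact permutation test, p = 0.25, the smallest that 3 pairs allow). Col6a4 and Col6a5, chains that can take the place of Col6a3, had log2 fold changes of -0.31 (SE 0.88) and 0.03 (SE 0.42) at means of 0.0539 to 0.269 CPM. Col6a1 lies 85161 bases from Col6a2 on the same strand.

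The anchoring fibril chain Col7a1 had 465, 465 and 616 CPM in acLDL-low and 448, 561 and 470 CPM in acLDL-high libraries. It was lower in acLDL-high cells in replicates 1 and 3 and higher in replicate 2. The log2 fold change was -0.06 (SE 0.09, edgeR adjusted p = 0.781), but without replicate 2 it was -0.22 and passed the threshold (adjusted p = 0.00118). Col17a1, a transmembrane collagen of hemidesmosomes, the junctions to which anchoring fibrils connect, was lower in all 3 pairs without passing (log2 fold change -0.21, SE 0.10, adjusted p = 0.289).

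The multiplexins gave different values. Col18a1 had 700, 569 and 855 CPM in acLDL-low and 759, 551 and 776 CPM in acLDL-high libraries, with overlapping populations and a log2 fold change of -0.02 (SE 0.05). Col15a1, its low-level relative in basement membranes, had the largest edgeR value of the 27 chains, a log2 fold change of 1.05 (SE 0.40, edgeR adjusted p = 0.173). With DESeq2 Col24a1 was larger, at 1.11 against 0.86 for Col15a1. The edgeR value of Col15a1 rests on 0.0743 to 0.291 CPM in acLDL-low and 0.0556 to 0.817 CPM in acLDL-high libraries. Without replicate 2, its lowest pair, the value was 1.25 and passed (adjusted p = 0.0442). Of the short-chain network collagens, Col8a1, known from vessel walls and the cornea, had a log2 fold change of 0.07 (SE 0.05) and Col8a2 of -0.20 (SE 0.37), with Col8a1 at 203 to 550 times the level of Col8a2 per kb.

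Among the fibril-associated collagens only Col12a1 was called. Col16a1 had 390, 282 and 378 CPM in acLDL-low and 411, 282 and 330 CPM in acLDL-high libraries, with a log2 fold change of -0.04 (SE 0.05). Col14a1, a close relative of Col12a1, had 0.34 (SE 0.41), Col20a1 -0.12 (SE 0.10) and Col9a3, a chain of the cartilage collagen type IX, -0.17 (SE 0.26) on the same scale. Col20a1 was lower in all 3 pairs.

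Fibrillar chains were present at low levels apart from Col5a1, which sets fibril diameter. It had 233, 131 and 153 CPM in acLDL-low and 269, 150 and 146 CPM in acLDL-high libraries. The populations overlapped and the log2 fold change was 0.11 (SE 0.05, edgeR adjusted p = 0.293). Its partner Col5a3 had 0.582, 0.347 and 0.229 CPM and 1.19, 0.278 and 0.237 CPM, with a log2 fold change of 0.43 (SE 0.33). Per kb the level of Col5a1 was 181 to 539 times that of Col5a3. Col11a2, of cartilage fibrils, was lower in all 3 pairs, with 16.6, 1.83 and 11.6 CPM in acLDL-low and 14.2, 1.78 and 9.37 CPM in acLDL-high libraries and a log2 fold change of -0.22 (SE 0.08, edgeR adjusted p = 0.169). Col1a1, the main chain of bone and skin fibrils, had a mean of 0.824 ± 0.341 CPM and 0.944 ± 0.516 CPM (SD, n = 3) and a log2 fold change of 0.16 (SE 0.21). Col2a1, of cartilage, had 0.23 (SE 0.17), Col24a1 0.74 (SE 0.48) and Col27a1 -0.04 (SE 0.19), and Col24a1 was higher in all 3 pairs.

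**Figure D3:**
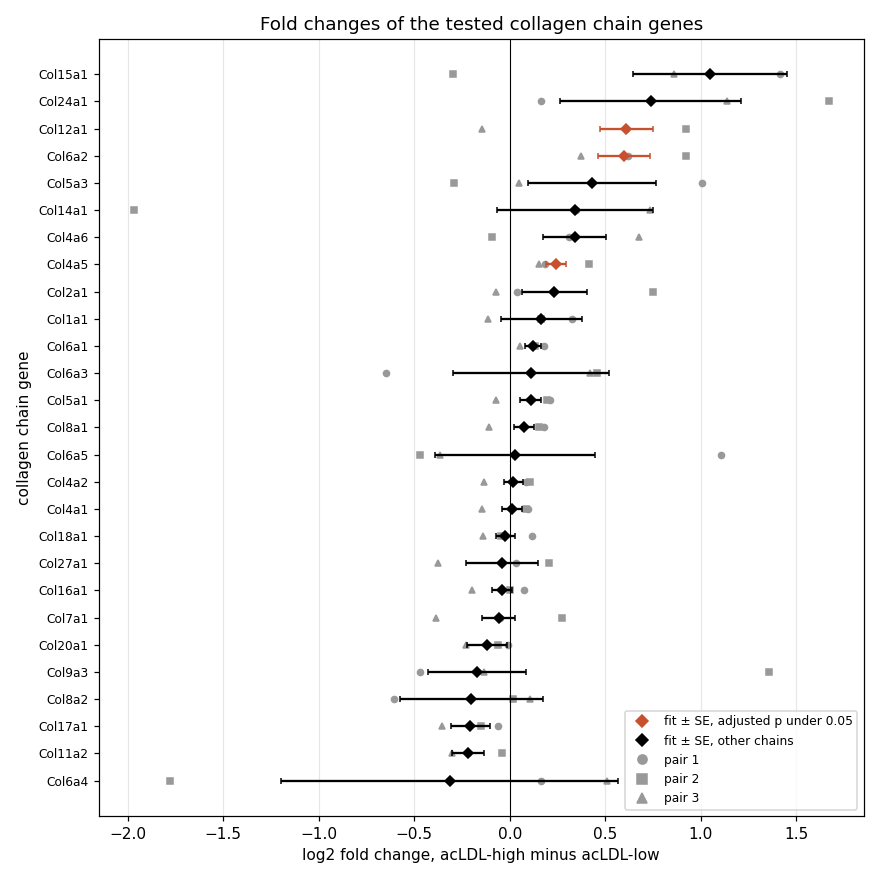
Log2 fold change, acLDL-high minus acLDL-low, of the 27 tested chains. Diamonds with bars are the fitted values ± SE, in orange for an adjusted p under 0.05, and grey symbols are the differences within each pair. The called chains Col12a1, Col6a2 and Col4a5 lie at 0.61, 0.60 and 0.24, and the widest bars belong to chains with few counts such as Col6a4.

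As a family, the chains had a median log2 fold change of 0.07, beside 0.0017 for all genes tested, and 17 of the 27 had a positive value. The median size regardless of sign was 0.17 for the chains and 0.073 for all genes, but among genes with a mean of at least 10 CPM it was 0.057 for the 9 chains and 0.056 for all 8863. Across the 27 chains this size went with a low mean CPM (Spearman coefficient -0.54, over genes that share the same 6 libraries). Of the 27, 4 were higher in all 3 pairs (Col24a1, Col4a5, Col6a1 and Col6a2) and 3 were lower in all 3 (Col11a2, Col17a1 and Col20a1), beside 2633 and 2442 of the 12572 genes tested, so that both shares of the chains were below those of all genes.

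The pairs differed in direction. In replicate 1, 20 of the 27 chains (74.1%) were higher in acLDL-high cells, in replicate 2 17 (63.0%) and in replicate 3 11 (40.7%), beside 54.8%, 47.4% and 49.8% of all genes. For the 9 chains with a mean of at least 10 CPM the counts were 8, 8 and 2, beside 58.1%, 45.8% and 50.7% of the 8863 genes at that level. The 2 of these chains that were higher in replicate 3 were Col4a5 and Col6a1. The median difference over the 27 chains was 0.16, 0.11 and -0.11 in the 3 pairs.

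For the median chain, the range over the 3 repeats was wider than the size of the fitted change between populations. These measures are unlike, since a range over 3 means tends to be larger than a single difference. In the same fit, 23 of the 27 chains (85.2%) differed between replicate numbers, beside 78% of all genes tested. These calls take the acLDL-low and acLDL-high library of a replicate number as independent repeats. Both are parts of a sorted culture, so the spread between cultures within an occasion was not measured. The median range over the replicates was 1.30 on the log2 scale for the chains and 0.45 for all genes. At a mean of at least 10 CPM it was 0.54 for the 9 chains and 0.37 for all genes. Col14a1 had the widest range, 3.99, followed by Col9a3 (3.64), Col20a1 (3.48), Col24a1 (3.39), Col6a2 (3.16) and Col11a2 (3.07). Replicate 2 was the lowest for 15 of the 27 chains (55.6%, beside 39.9% of all genes). Col12a1 went another way, with a range of 2.998 and its lowest value in replicate 3. At the other end, Col4a1 and Col4a2 ranged over 0.43 and 0.42. The replicates were not called different for Col2a1 (0.17), Col7a1 (0.24), Col8a2 (0.38) and Col6a5 (0.75), with edgeR adjusted p of 0.692, 0.114, 0.627 and 0.258.

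**Figure D4:**
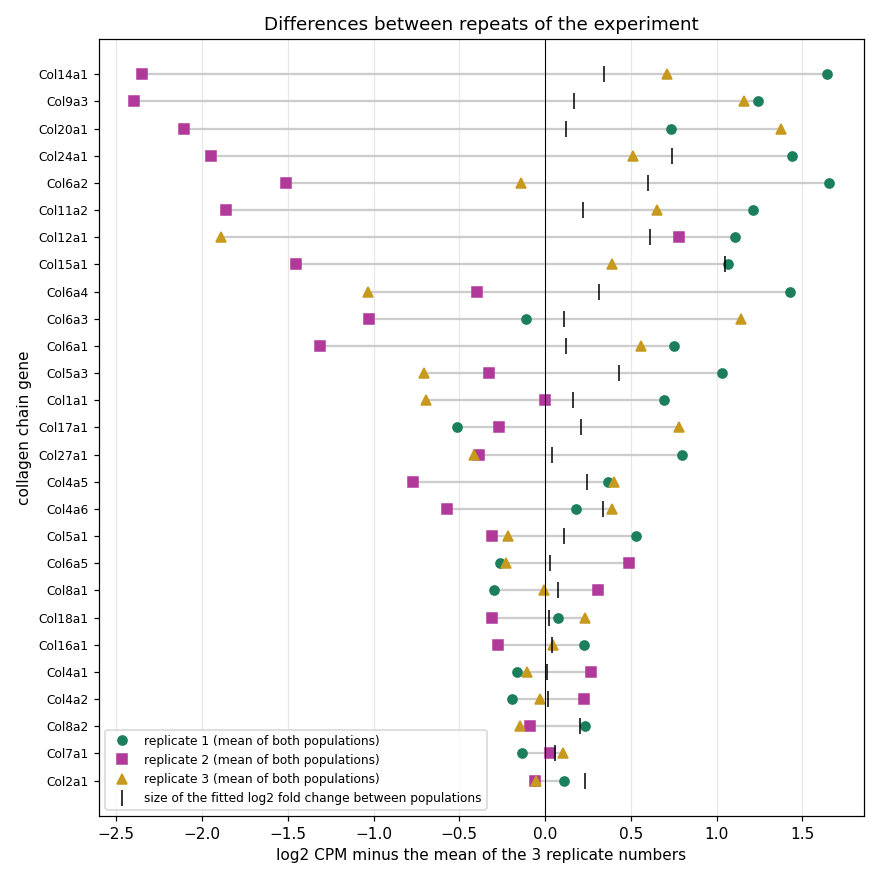
Mean log2 CPM of both populations in each replicate, relative to the mean of the 3, for the 27 tested chains, ordered by range. The black tick gives the size of the fitted log2 fold change between populations without its sign. Replicate 2 is leftmost for 15 chains. The range of Col6a2 over the 3 replicates is 3.16 and its fold change, an unlike measure, is 0.60.

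Collagen is modified, folded, secreted, trimmed and cross-linked by a shared set of proteins, and 37 of their genes were listed, of which 29 were tested. In this list 0 genes were called in either direction by edgeR or DESeq2, with 3 higher and 1 lower at edgeR's unadjusted p under 0.05 (13.8% of the list, beside 19.4% of all genes) and 1 of each for DESeq2. By level per kb the list was led by P4hb, a subunit of prolyl hydroxylase, Ppib, a prolyl isomerase, and Serpinh1, the collagen chaperone HSP47, at 312, 176 and 130 CPM per kb. P4hb had 790.5, 923 and 985 CPM in acLDL-low and 808, 913 and 943 CPM in acLDL-high libraries, a log2 fold change of -0.02 (SE 0.04). Ppib had a log2 fold change of -0.03 (SE 0.04) and Serpinh1 of -0.07 (SE 0.05). The cross-linking enzyme Lox was no row of the table. The median log2 fold change of the 29 was 0.0012.

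Of 12 collagen receptor genes 8 were tested, and edgeR called 0, with 2 higher and 1 lower at an unadjusted p under 0.05 (37.5% of the 8, beside 19.4% of all genes). DESeq2 called 1 higher, Itga2, which encodes the collagen-binding subunit of an integrin. It had 241, 417 and 524 CPM in acLDL-low and 293, 445 and 558 CPM in acLDL-high libraries and was higher in all 3 pairs. The log2 fold change was 0.16 (SE 0.05, edgeR adjusted p = 0.0919, DESeq2 adjusted p = 0.0493). Its partner Itgb1, at 187 CPM per kb the highest of the receptors, had 0.08 (SE 0.04), and the discoidin domain receptor Ddr2, a kinase that binds fibrillar collagen, -0.0024 (SE 0.04), a value whose sign changed with the scaling.

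Fibril partners, matrix proteins that bind collagen, were 22 listed genes, 11 of them tested, and 3 were higher (27.3%, beside 4.75% of all genes) and 0 lower by edgeR. Thbs1, the matricellular protein thrombospondin, rose by 0.68 (SE 0.07, edgeR adjusted p = 0.000122), from 779, 465 and 456 CPM in acLDL-low to 1075, 874 and 724 CPM in acLDL-high libraries. It was higher in all 3 pairs, while the populations overlapped. Fn1, fibronectin, had the highest level of the list, with 4781, 3316 and 9382 CPM in acLDL-low and 5562, 4191 and 10029 CPM in acLDL-high libraries and a log2 fold change of 0.22 (SE 0.06, adjusted p = 0.0422). Matn2, an adaptor protein of filament networks, had 42.9, 28.8 and 65.7 CPM and 48.1, 35.5 and 71.6 CPM, a log2 fold change of 0.19 (SE 0.05, adjusted p = 0.0422). DESeq2 called 2 of these and gave Matn2 an adjusted p of 0.0503. Thbs1 was called with each replicate left out, whereas Fn1 lost its call whichever was left out (adjusted p of 0.119, 0.0587 and 0.0674 without replicate 1, 2 and 3) and Matn2 lost its call without replicate 2 (0.161) or 3 (0.148). Hspg2, the basement membrane proteoglycan perlecan, had a log2 fold change of -0.12 (SE 0.06) and was called lower without replicate 2 (-0.19, adjusted p = 0.00823). Of the small leucine-rich proteoglycans that coat fibrils, Podn alone was tested, with -0.38 (SE 0.41). Exons of Thbs1, Fn1 and Matn2 overlap genes of the other strand over 3.43%, 2.499% and 1.12% of their length, and those of Col12a1, Col4a5 and Col6a2 overlap none. Of the 41 chains 5 overlap other genes over more than 1% of their exons, Col9a3 (6.07%), Col4a3 (5.65%), Col6a4 (3.39%), Col5a1 (2.497%) and Col20a1 (1.54%), and how the counting treated reads there is not given in the sources used here.

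**Figure D5:**
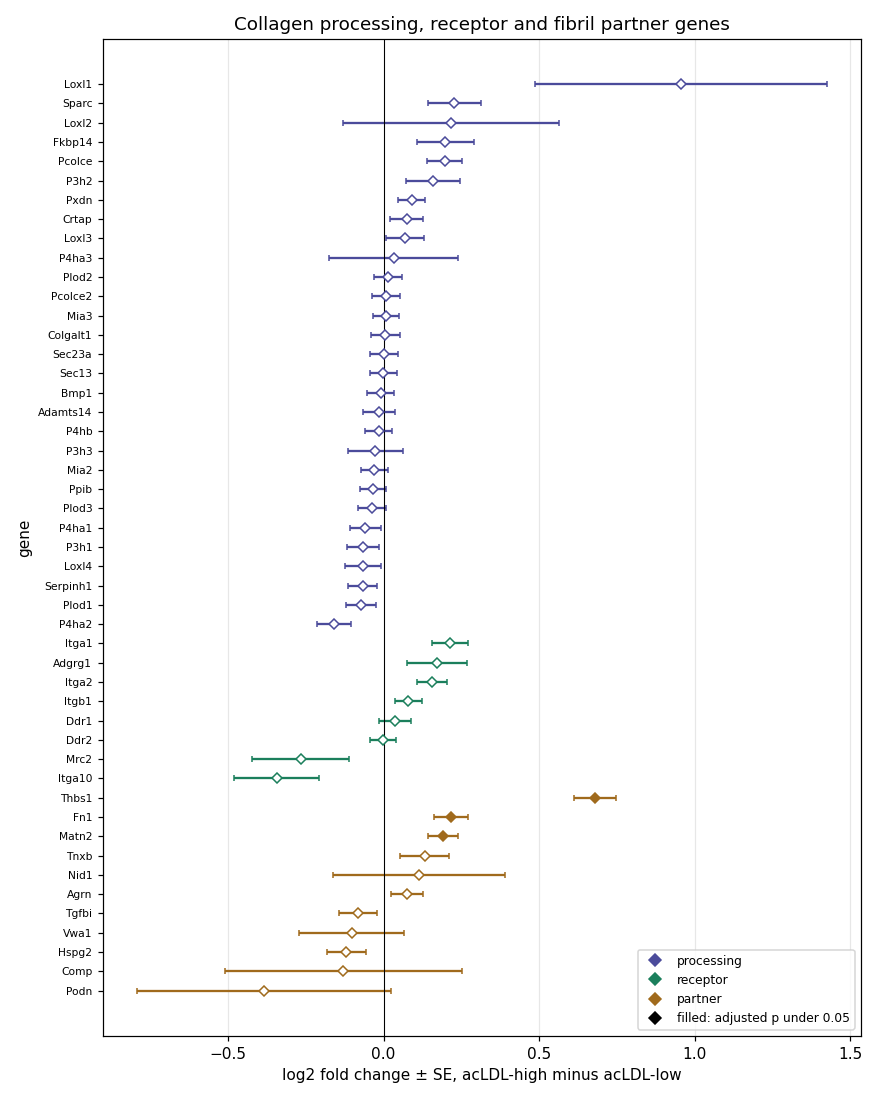
Log2 fold change ± SE, acLDL-high minus acLDL-low, of the tested genes for collagen processing (29), collagen receptors (8) and fibril partners (11). Filled symbols have an adjusted p under 0.05 and are Thbs1, Fn1 and Matn2, at 0.68, 0.22 and 0.19.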

How the data were processed

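RNA was sequenced as paired-end reads from stranded poly(A) libraries. Per the labels, the authors aligned reads to mm10 with STAR (2.5.2a) and counted them per gene with featureCounts (1.4.3-p1), and deposited raw counts for 53379 genes, without normalization. The annotation release and strand setting are not given in the sources used here. The authors' DESeq2 (1.20.0) table of protein-coding genes gave gene IDs and symbols. Its mean normalized counts, fold changes, standard errors, statistics and p-values were not used.

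Counts were analysed with edgeR 4.0.16 (R 4.3.3) in all 6 libraries, with filterByExpr, TMM scaling, the quasi-likelihood test and a block for the replicate. Its number is that of the labels, and the study's methods include replicate information in the comparison. Deviations of same-numbered libraries from their group means correlated at 0.795, 0.846 and 0.799. Other pairings gave -0.557 to -0.0882. No 2 libraries were alike within sampling noise. The p-values for the populations rest on how their difference varied between repeats of 1 clonal line. Differences in level between repeats are taken up by the block. The SE was derived from the fitted change and its F value, so it does not measure that spread either. Differences within pairs use log2 CPM with a prior count of 2, except for summed CPM and ratios, which use none.

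Exon lengths, positions and coding sequences are from GENCODE M21 (GRCm38), which holds all 41 member IDs, 35 of them in the same version. A length is the union of a gene's exons. Promoters are from RefSeq. Every tested chain is named. Library values are given for called chains, the 6 highest per kb and trimer partners, and of the other lists the called genes and the 3 highest per kb are described. Library values of Col11a2, Col15a1 and Itga2 and the names Lox, Podn and Mfap5 were added after their values were seen. The members and lists were chosen with earlier results of these data known. Alternatives were no block, DESeq2 size factors, DESeq2 1.42.0, no filter, a minimum of 10 counts in each library, testing the whole count table and leaving out each replicate.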

Additional observations from a re-analysis of the deposited data

How the results depend on the processing

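Col12a1, Col4a5 and Col6a2 were the called chains with DESeq2 size factors, the DESeq2 Wald test, no low-count filter, a minimum of 10 counts in each library and all genes of the count table. Without the replicate block the pairing was not used, and 0 of 12329 genes were called, so that 0 chains, 0 processing genes, 0 receptors and 0 fibril partners were, and the log2 fold change of Col6a5 turned to -0.0085. Leaving out each replicate gave 1 to 3 chains called higher, 0 to 1 lower, 0 to 1 processing genes, 0 to 2 receptors and 1 to 2 fibril partners. Receptors called were 1 with DESeq2 size factors, 1 with the DESeq2 Wald test, 2 without the filter and 1 with all genes, and 2 processing genes were called without the filter. In those settings Ddr2 turned from -0.0024 to 0.00068, 0.00067, 0.0044 and 0.0078. With DESeq2 the log2 fold change of Col9a3 was 0.025, against -0.17 with edgeR, and that of Col14a1 was 0.0077, against 0.34. Signs also turned when a replicate was left out. Over the fits without a replicate, log2 fold changes ran for Col16a1 from -0.097 to 0.040, for Col18a1 from -0.092 to 0.038, for Col27a1 from -0.14 to 0.11, for Col2a1 from -0.021 to 0.39, for Col4a1 from -0.028 to 0.093 and for Col4a2 from -0.027 to 0.099. They ran for Col5a3 from -0.15 to 0.73, for Col6a3 from -0.26 to 0.47, for Col6a4, not tested without replicate 1, from -0.45 to 0.30, for Col6a5 from -0.46 to 0.39, for Col7a1 from -0.22 to 0.11 and for Col8a2 from -0.35 to 0.066. They further ran for Col9a3 from -0.31 to 0.12, for Ddr2 from -0.021 to 0.0086 and for P4hb from -0.038 to 0.0091. None of these was called in the comparison of all 6 libraries, and Col7a1 was the only chain of them called with a replicate left out, as given above. The cause was not tested. The 14 chains with at most 10 counts were not tested in the main fit. Without the filter all 41 chains were tested, and only Col12a1, Col4a5 and Col6a2 were called. Of the chains tested in the main fit, Col6a4, Col14a1 and Col24a1 had libraries with 0 counts. Exon length from the longest transcript kept 11 chains at or above 1 CPM per kb.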
